A study of Mus musculus with 8 samples.

Results

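The genes of the YAP, TAZ, TEAD and VGLL4 transcription complex were followed in tumor cells of mice in which Yap1 was targeted by Cre. They are Yap1 and Wwtr1 (which encodes TAZ), Tead1, Tead2, Tead3 and Tead4, and Vgll4, and they were taken by symbol from the table of raw read counts, which lists 27179 entries. All 7 genes were found, and all 7 passed the filter on low counts. RNA was measured by bulk sequencing in cells sorted for the epithelial surface protein EpCAM from antral gastric tumors, with 1 library per mouse, 4 from Gp130FF; Yap1KO and 4 from Gp130FF; Yap1WT mice. Gp130FF is a point mutation of the gp130 cytokine receptor, carried by all 8 mice, that leads to gastric tumors. Per the labels, Yap1KO mice are gp130FF; Yap1 flox/flox, Yap1WT mice are gp130FF; Yap1WT, and all mice were 18 weeks old and sampled 3 days after tamoxifen. The study's methods instead describe the Yap1-proficient mice as vehicle-treated animals of the floxed Tff1:CreERT2 genotype, and its results text gives an older age, so whether tamoxifen itself differed between the groups is not settled by these sources. Cre was driven by regulatory elements of Tff1, which is active in foveolar cells of the gastric surface. From Tff1 expression the paper infers that Yap1 was also deleted in tumor epithelial, mucous neck, parietal, chief, tuft and neuroendocrine cells. Sorted cells without Cre activity would keep an intact Yap1. Nothing in the labels ties mice to litters, although the paper calls the Yap1-proficient mice of its tumor experiment littermates. The p-values measure the spread between these mice.

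YAP1 and TAZ are paralogous coactivators that carry no DNA-binding domain and reach DNA through the TEAD factors. The kinases LATS1 and LATS2, at the end of the Hippo pathway, phosphorylate both coactivators and so keep them in the cytoplasm or mark them for degradation. VGLL4 binds the same TEAD factors through its TDU motifs and competes with YAP1 for them, and is known as a suppressor of YAP-driven growth in several tissues, the stomach among them. TEAD1 to TEAD4 bind the short sequence GGAATG (the MCAT element) and differ between tissues in which of them is most abundant.

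The stretch that Cre removes is shown first because the counts of Yap1 are read over the whole gene. Yap1 lies on chromosome 9 of GRCm38, minus strand, from 7931999 to 8004638. Its exon 3 spans 116 bases, which is 2 more than a multiple of 3, and these are 1.25% of the 9257 exonic bases that the GENCODE vM21 annotation gives the gene. When exon 2 was joined to exon 4 by script, the reading frame met a stop at position 11 of exon 4, after 179 codons, against 488 codons in the whole transcript Yap1-201. The capitals mark the tryptophan codon TGG that stands in frame in exon 3, and the stop TGA that stands in the shifted frame of exon 4.
Yap1 exon 3, chr9:7973796-7973911, minus strand: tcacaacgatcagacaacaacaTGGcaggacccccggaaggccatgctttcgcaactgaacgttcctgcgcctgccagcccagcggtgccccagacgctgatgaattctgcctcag
Yap1 exon 4, chr9:7962289-7962402, minus strand: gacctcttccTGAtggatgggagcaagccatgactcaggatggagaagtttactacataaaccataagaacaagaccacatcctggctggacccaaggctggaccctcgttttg
A gene count does not show whether a transcript holds exon 3, and exon-level reads were not used here.

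**Figure D1:**
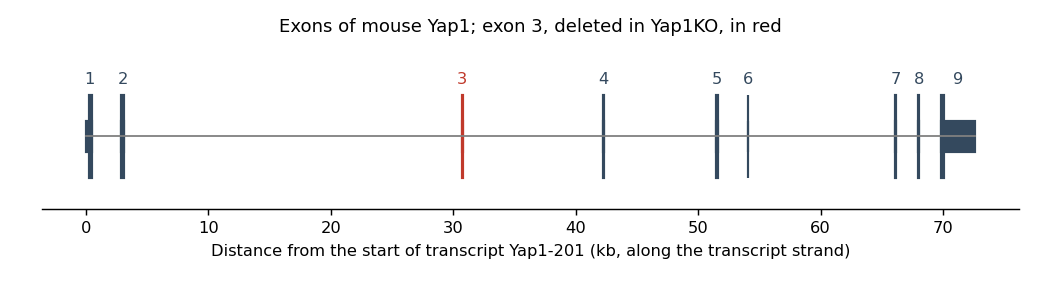
Exons of the mouse Yap1 transcript Yap1-201 along the distance from its start in kb, with coding parts as tall boxes, untranslated parts as low boxes and the deleted exon 3 in red. Exon 3, of 116 bases, is 1 of 9 exons.

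The promoters of the 3 genes whose levels did not overlap between the groups, Yap1, Wwtr1 and Vgll4, are shown because TEAD factors themselves have a known recognition sequence. The letters GGAATG, or CATTCC on the other strand, were searched in windows of 300 bases around RefSeq transcript starts on GRCm38.p6, from 250 bases before to 50 after. Each of these 3 genes held 1 match, in capitals, which began 141 bases before the start in Yap1, 136 in this Wwtr1 entry and 82 in Vgll4. Only the 250 bases before the start are printed.
Yap1 promoter, chr9:8004597-8004846, minus strand: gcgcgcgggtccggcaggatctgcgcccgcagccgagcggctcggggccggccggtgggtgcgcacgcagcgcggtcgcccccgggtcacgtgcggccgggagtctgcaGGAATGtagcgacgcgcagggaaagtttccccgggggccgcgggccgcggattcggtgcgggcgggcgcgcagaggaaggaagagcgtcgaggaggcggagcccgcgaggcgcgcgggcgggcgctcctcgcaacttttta
Wwtr1 promoter, chr3:57575911-57576160, minus strand: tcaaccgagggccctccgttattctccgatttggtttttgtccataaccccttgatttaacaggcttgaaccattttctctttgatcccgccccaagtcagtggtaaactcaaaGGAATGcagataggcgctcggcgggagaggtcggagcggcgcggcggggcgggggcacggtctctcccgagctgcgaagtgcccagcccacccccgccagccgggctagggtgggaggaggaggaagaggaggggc
Vgll4 promoter, chr6:114969204-114969453, minus strand: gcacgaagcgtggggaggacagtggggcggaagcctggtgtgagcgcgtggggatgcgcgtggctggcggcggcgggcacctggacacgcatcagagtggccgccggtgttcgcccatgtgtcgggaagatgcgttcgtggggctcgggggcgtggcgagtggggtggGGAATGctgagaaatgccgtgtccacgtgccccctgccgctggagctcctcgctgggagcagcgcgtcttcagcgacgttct
The same letters occurred in the windows of 4 of the 5 complex genes that had an entry (Yap1, Wwtr1, Vgll4 and Tead3, but not Tead2), against 16.6% of the 27025 genes with an entry. Counted by window they occurred in 6 of 8, against 14.7% of all 32851. These windows are not all separate, since those of Wwtr1 overlap and hold the same match, and neighbouring Tead3 windows overlap in part. A gene with several windows also has more chances of a match. A match is a string of letters and does not show binding.

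Across the libraries, total counts were 18229945 to 74278015 in Yap1KO and 27607755 to 77483047 in Yap1WT. Yap1KO replicate 4, with the fewest counts, lay far from the remaining 7 libraries on principal component 1, and 1 Yap1KO and 2 Yap1WT libraries (Yap1KO replicate 4, Yap1WT replicates 1 and 4) had the Xist and Ddx3y counts of female mice. Epithelial markers were abundant, with 9530 to 12000 CPM (counts scaled to library size by TMM) summed over 7 epithelial markers in Yap1KO and 10200 to 12200 in Yap1WT, led by Krt8 and Krt19. Epcam, which encodes the protein used for sorting, was itself higher in Yap1KO, at 1650 ± 100 CPM against 977 ± 47 CPM in Yap1WT (SD, n = 4 each, log2 fold change 0.76, adjusted p = 0.00188 from edgeR). Markers of stromal cells were also present. The 12 endothelial markers, led by Plvap and Pecam1, summed to 571 to 1170 CPM in Yap1KO and 183 to 652 CPM in Yap1WT, and the 12 fibroblast markers, led by Col3a1 and Sparc, to 507 to 1540 CPM in Yap1KO and 182 to 1080 CPM in Yap1WT. All 12 endothelial and 11 of 12 fibroblast markers had a log2 fold change above 0 (medians 1.25 and 1.0, against -0.01 over all genes), and of the 12 endothelial markers 1 (Tie1) was called higher by edgeR, 7 by DESeq2, 8 by limma-voom and 11 with edgeR's p left unadjusted, with 0 lower by any of these. Among the fibroblast markers the counts called higher and lower were 0 and 0 by edgeR, by DESeq2 and by limma-voom, and 2 and 0 when edgeR's p was left unadjusted. No share over all genes is given for limma-voom or for unadjusted p, here or for the lists below. Counts under these settings therefore have no background to be read against. The 12 leukocyte markers reached no more than 19.8 CPM in Yap1KO and 17.2 CPM in Yap1WT. None of the 12 endothelial or 12 fibroblast markers was at 0 in every library, and in bulk RNA fewer cells of a type and less RNA per cell cannot be told apart.

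Of the complex, 1 gene fell (Yap1) and 1 gene rose (Vgll4) in Yap1KO cells, and the other 5, Wwtr1 and all 4 TEAD genes, did not pass edgeR's test. Log2 fold changes are Yap1KO over Yap1WT, and adjusted p-values are from edgeR's quasi-likelihood test with Benjamini-Hochberg adjustment over 13495 genes, at a threshold of 0.05. Among all genes tested 2.34% were called lower and 3.53% higher, 5.87% in either direction, against 2 of the 7 here. Of these 2, 1 is Yap1, the gene targeted by design, which leaves Vgll4 alone to set beside those shares. By DESeq2 4.22% of all genes were called lower and 6.27% higher, and 1 (again Yap1) and 2 of the 7 were. In 7.19% of genes every Yap1KO library lay above every Yap1WT library, with 6.01% the other way round.

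**Figure D2:**
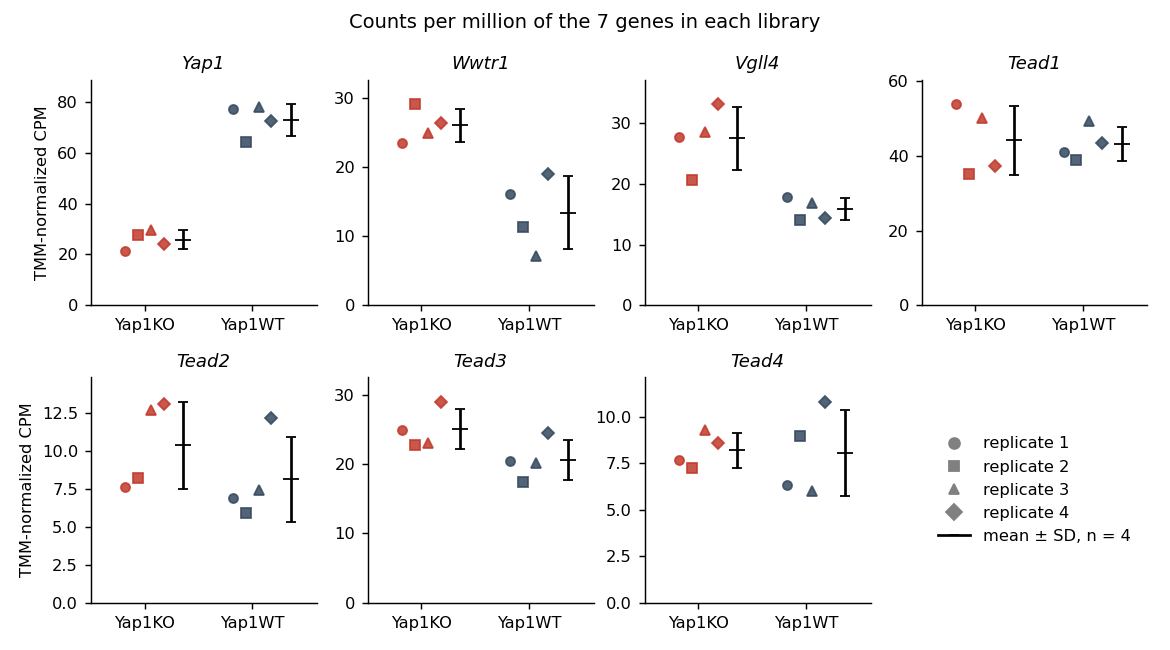
TMM-normalized CPM (y axis, from 0) of the 7 genes in each Yap1KO (red) and Yap1WT (dark blue) library, with marker shapes for the replicate numbers and black bars for the mean and SD of 4 mice. Yap1 is below 30 CPM in all Yap1KO libraries and above 64 CPM in all Yap1WT libraries, Wwtr1 and Vgll4 are separated the other way, and the TEAD genes overlap.

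Yap1, the targeted gene, is the coactivator after which the knockout is named. Its level was 21.3, 27.6, 29.7 and 24.2 CPM in Yap1KO replicates 1 to 4, against 77.1, 64.2, 78.0 and 72.5 CPM in Yap1WT replicates 1 to 4. The groups did not overlap, and both were tight, with coefficients of variation of 14.4% in Yap1KO and 8.68% in Yap1WT. Yap1 fell by 1.51 on the log2 scale (standard error, SE, 0.13, 95% interval -1.79 to -1.23, adjusted p = 0.000208 from edgeR), and had the 16th smallest p-value of all genes tested. The remaining level was 0.352 of that in Yap1WT. Beside it, markers of foveolar cells, which are among the cells with active Cre, differed between the groups. Of 8 such markers, 7 had a log2 fold change below 0 (median -0.81 over the 8), and edgeR called Capn8 and Anxa10 lower (-1.76 and -0.98, adjusted p = 0.00156 and 0.00299), DESeq2 4 lower and 1 higher, and limma-voom 2 lower. Their summed level overlapped, at 76400 to 104000 CPM in Yap1KO and 72900 to 120000 CPM in Yap1WT. Most of it was Tff2, the 1 marker above 0, at 60100 CPM on average in Yap1KO and 42700 CPM in Yap1WT, followed by Gkn1. Tff2 is also expressed in mucous neck and gland cells, so neither its value nor the sum stands for foveolar cells alone. The paper also reports abundant Yap1 transcripts in parietal cells. Of 5 parietal and chief cell markers, led by Pgc and Cblif, 2 had a log2 fold change above 0 (median -0.89). EdgeR called 0 higher and 0 lower, and DESeq2 1 lower. Atp4a and Atp4b stood at -2.02 and -2.61 (adjusted p = 0.107 and 0.0863 from edgeR). The 5 summed to 538 to 2110 CPM in Yap1KO and 293 to 3680 CPM in Yap1WT. What part the shares of foveolar, parietal and chief cells had in the level of Yap1 was not tested. The fall was of like size in both series of mouse numbers, with a log2 ratio of -1.53 between the 2 Yap1KO and 2 Yap1WT mice numbered under 450 and of -1.48 between the 2 and 2 above. A noncoding gene, Gm20416, overlaps Yap1 on the opposite strand, and the library kit does not mark strand, so that reads of the pair cannot be told apart by strand.

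Wwtr1, on chromosome 3 from 57455644 to 57575910, encodes TAZ, the paralog that shares the TEAD factors with YAP1. It had 23.6, 29.2, 25.0 and 26.5 CPM in Yap1KO replicates 1 to 4 and 16.2, 11.3, 7.15 and 19.1 CPM in Yap1WT replicates 1 to 4. Every Yap1KO library was above every Yap1WT library, but the Yap1WT libraries were spread over a wide range, with a coefficient of variation of 39.4% against 9.22% in Yap1KO. The log2 fold change was 0.96 (SE 0.26, 95% interval 0.37 to 1.54) and did not pass (adjusted p = 0.0658 from edgeR). DESeq2 and limma-voom did call it (adjusted p = 0.00759 and 0.0224), as did edgeR with a sex term (0.0191), with the replicate number as a block (0.0395) or without Yap1WT replicate 4 (0.0302). An exact two-sided permutation test on the deposited log2 values gave p = 0.0286, which is the smallest that 4 against 4 mice can give. The log2 ratios within the 2 series of mouse numbers were 0.94 and 0.97. The paper reports the other direction elsewhere, with less TAZ protein in whole Yap1KO tumors taken weeks after tamoxifen and less Taz RNA in Yap1 knockdown organoids. Those results differ from the present one in measure, material or time, and the reason for the difference was not tested.

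Among the Yap1WT mice, Wwtr1 and the fibroblast markers had the same order of libraries, from replicate 3 through 2 and 1 to 4. The endothelial markers did not share this order in Yap1WT. In Yap1KO neither marker sum had the order of Wwtr1, which was highest in replicate 2, at 29.2 CPM, while both sums were highest in replicate 4. Wwtr1 was lowest in Yap1WT replicate 3, at 7.15 CPM, where the endothelial and fibroblast markers summed to 183 and 182 CPM, and highest in Yap1WT replicate 4, at 19.1 CPM, where they summed to 652 and 1080 CPM. Yap1KO replicate 1 had fewer of both than Yap1WT replicate 4, at 571 and 507 CPM, with Wwtr1 at 23.6 CPM. The genes whose profile over the 8 libraries was nearest to that of Wwtr1 were Rtl8b, Ptprm and Ets1 (root mean square distance 0.165, 0.182 and 0.184 on the log2 scale, against a median of 0.691 over all genes tested). Ptprm encodes a receptor tyrosine phosphatase and Ets1 a transcription factor, and both are known to be expressed in endothelial cells. Ptprm had 10.2 CPM on average in Yap1KO and 4.38 CPM in Yap1WT, and Ets1 45.9 CPM in Yap1KO and 26.6 CPM in Yap1WT. What part stromal RNA had in the level of Wwtr1 was not tested.

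**Figure D3:**
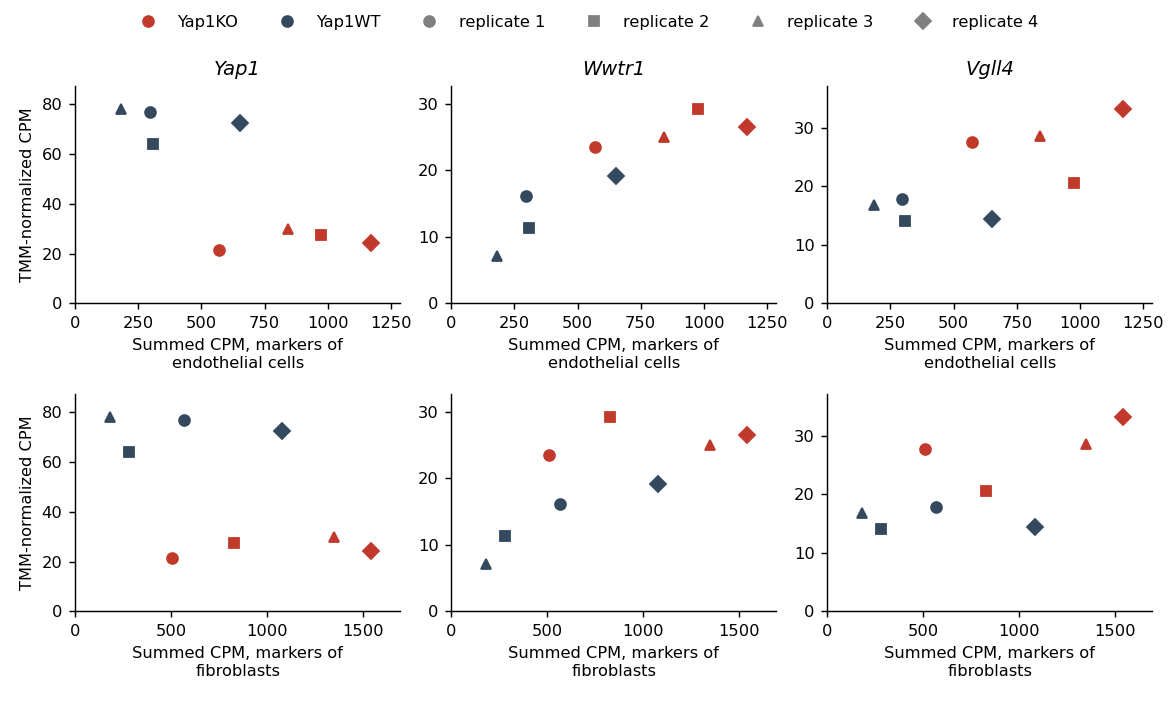
TMM-normalized CPM of Yap1, Wwtr1 and Vgll4 (y axes, from 0) against the summed CPM of 12 endothelial markers (upper row) and 12 fibroblast markers (lower row), for 4 Yap1KO (red) and 4 Yap1WT (dark blue) libraries with shapes for the replicate numbers. Endothelial markers sum to 571 to 1170 CPM in Yap1KO and 183 to 652 CPM in Yap1WT, and Yap1KO replicate 4 has the most of both marker sums and the highest Vgll4.

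Vgll4, on chromosome 6 from 114860621 to 114970007, encodes the cofactor that competes with YAP1 for TEAD. It had 27.7, 20.6, 28.6 and 33.2 CPM in Yap1KO replicates 1 to 4, against 17.8, 14.1, 16.9 and 14.4 CPM in Yap1WT replicates 1 to 4. The groups did not overlap, the nearest libraries being Yap1KO replicate 2 and Yap1WT replicate 1. Vgll4 rose 1.74-fold (log2 fold change 0.80, SE 0.16, 95% interval 0.44 to 1.16, adjusted p = 0.0189 from edgeR). DESeq2 and limma-voom gave adjusted p-values of 0.00062 and 0.0228. The call was lost without Yap1KO replicate 1 (adjusted p = 0.0528), without Yap1KO replicate 4 (0.0574) or without Yap1WT replicate 3 (0.0525), with log2 fold changes of 0.80, 0.70 and 0.84. In the 2 series of mouse numbers the log2 ratio was 0.60 under 450 and 0.98 above. In the Yap1KO library with the most stromal marker RNA, replicate 4, Vgll4 was highest, at 33.2 CPM, and in replicate 1, with the least, it was at 27.7 CPM. In Yap1WT it was at 14.4 CPM in replicate 4, which had the most, and at 16.9 CPM in replicate 3, which had the least. What part stromal RNA had in the level of Vgll4 was not tested.

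Of the genes nearest in profile to Vgll4, Plekhh2, Spats2 and Mdm2 (root mean square distance 0.0801, 0.111 and 0.111, against a median of 0.512), Mdm2 encodes the ubiquitin ligase that acts on p53. Mdm2 averaged 89.3 CPM in Yap1KO and 49.4 CPM in Yap1WT (log2 fold change 0.85, adjusted p = 0.00539 from edgeR). Those nearest to Yap1 were Lypd6b, Sult1c2 and Cbr3 (0.144, 0.179 and 0.209, against a median of 0.794). Sult1c2, a cytosolic sulfotransferase gene, averaged 171 CPM in Yap1KO and 531 CPM in Yap1WT, and Cbr3, a carbonyl reductase gene, 70.5 CPM in Yap1KO and 175 CPM in Yap1WT. Likeness of profile over 8 libraries in 2 groups is a description. The nearest genes were picked by this likeness, so a like difference between the groups comes with the pick. The p-value of Mdm2 is therefore no separate evidence.

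The 4 TEAD genes encode the DNA-binding members. Tead1, on chromosome 7 from 112679356 to 112906784, had 53.9, 35.1, 50 and 37.3 CPM in Yap1KO replicates 1 to 4 and 41.1, 39.0, 49.4 and 43.3 CPM in Yap1WT replicates 1 to 4. The Yap1KO libraries lay on both sides of the Yap1WT range, and the log2 fold change was 0.03 (SE 0.15, 95% interval -0.31 to 0.37, adjusted p = 0.942 from edgeR). Tead4, on chromosome 6 from 128227143 to 128300813, was among the lowest, with 7.65, 7.23, 9.30 and 8.57 CPM in Yap1KO and 6.30, 8.97, 5.99 and 10.8 CPM in Yap1WT. All 4 of its Yap1KO values fell inside the Yap1WT range (log2 fold change 0.03, SE 0.23, 95% interval -0.49 to 0.55, adjusted p = 0.961 from edgeR). The small differences of Tead1 and Tead4 changed sign under 4 settings each, the values over all settings lying between -0.08 and 0.21.

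Tead3, on chromosome 17 from 28331671 to 28350805, had 24.9, 22.8, 23.1 and 29.0 CPM in Yap1KO and 20.4, 17.4, 20.1 and 24.5 CPM in Yap1WT. Only Yap1WT replicate 4 overlapped the Yap1KO libraries, and the log2 fold change of 0.28 (SE 0.14, 95% interval -0.04 to 0.59) did not pass (adjusted p = 0.315 from edgeR, and p = 0.0857 in the exact permutation test on the deposited log2 values). Tead2, on chromosome 7 from 45215792 to 45233468, had 7.67, 8.21, 12.7 and 13.1 CPM in Yap1KO and 6.90, 5.94, 7.47 and 12.2 CPM in Yap1WT. It varied more within the groups than between them, with coefficients of variation of 27.5% in Yap1KO and 34.5% in Yap1WT (log2 fold change 0.36, SE 0.28, 95% interval -0.27 to 0.98, adjusted p = 0.529 from edgeR). In Yap1KO much of this spread lay between the series of mouse numbers, while in Yap1WT replicate 4 alone stood apart, at 12.2 CPM. Tead2 averaged 7.94 CPM in Yap1KO and 6.42 CPM in Yap1WT mice numbered under 450, and 12.9 CPM in Yap1KO and 9.86 CPM in Yap1WT mice above, with log2 ratios of 0.31 and 0.39. The leukocyte gene Cd37 overlaps Tead2 on the opposite strand. The upper end of the interval, on the log2 scale, lay at 0.98 for Tead2 and at 0.37 for Tead1, so rises up to that size lie within the interval of these genes.

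**Figure D4:**
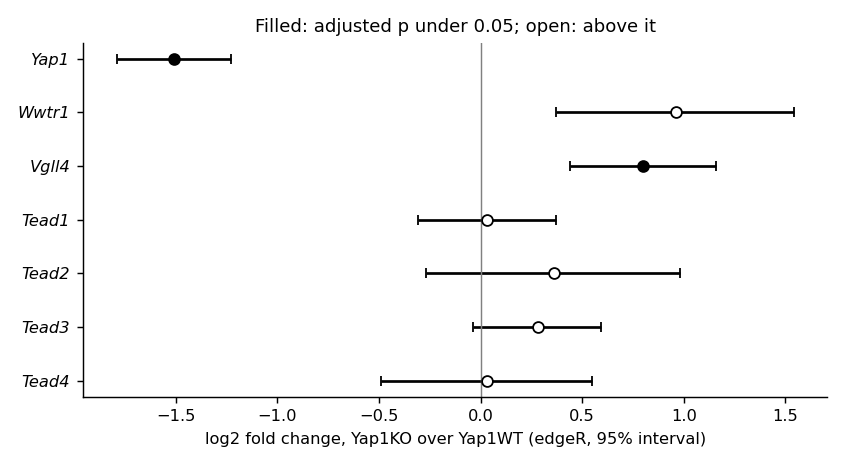
Log2 fold change of Yap1KO over Yap1WT (x axis) for the 7 genes (y axis) with 95% intervals from edgeR, filled where the adjusted p was under 0.05. Yap1 at -1.51 and Vgll4 at 0.80 are filled, and Wwtr1 at 0.96 is open with an interval of 0.37 to 1.54.

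To set the genes beside each other, levels per gene length were taken from the deposited log2 RPKM values (reads per length of gene and size of library, in log2 units). In Yap1KO cells Vgll4 was the highest of the 7 at 4.41, followed by Tead3 at 3.06, Yap1 at 2.63, Wwtr1 at 2.46, Tead2 at 2.24, Tead1 at 2.15 and Tead4 at 1.38. In Yap1WT cells Yap1 was the highest at 4.14, followed by Vgll4 at 3.64, Tead3 at 2.79, Tead1 at 2.12, Tead2 at 1.96, Wwtr1 at 1.45 and Tead4 at 1.42. Some neighbours in these orders could not be separated. In Yap1KO Wwtr1 was above Tead2 in only 2 of 4 libraries and Tead2 above Tead1 in 3 of 4, and in Yap1WT Tead1 was above Tead2 and Tead2 above Wwtr1 in 3 of 4, and Wwtr1 above Tead4 in 2 of 4. The other neighbours kept their order in all 4 libraries of the group.

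**Figure D5:**
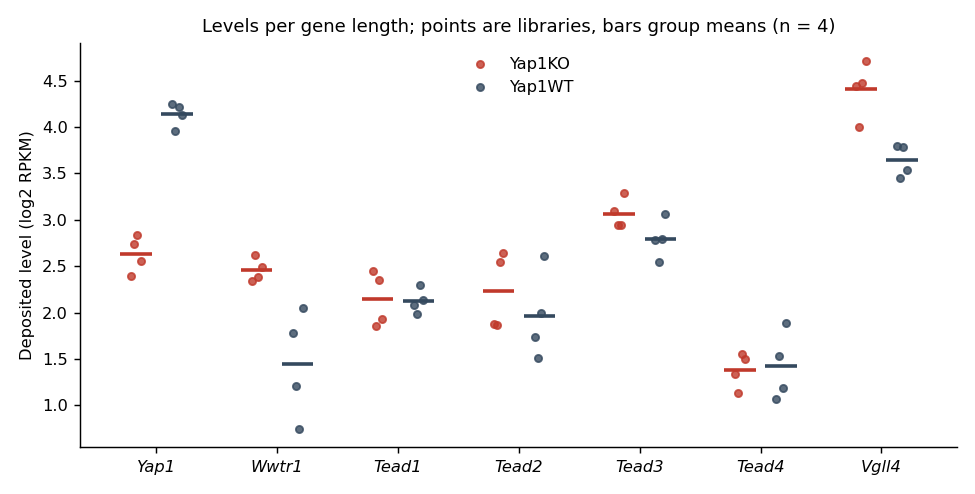
Deposited levels per gene length (log2 RPKM, y axis) of the 7 genes in each Yap1KO (red) and Yap1WT (dark blue) library, with bars at the group means of 4 mice. Vgll4 is highest in Yap1KO, at 4.41, and Yap1 in Yap1WT, at 4.14.

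Within the pair of coactivators, Wwtr1 made up 49.1, 48.1, 42.2 and 48.8% of the summed Yap1 and Wwtr1 level (RPKM) in Yap1KO replicates 1 to 4, against 15.3, 12.9, 8.28 and 19.1% in Yap1WT replicates 1 to 4. The sum of both averaged 11.8 ± 1.1 RPKM in Yap1KO and 20.6 ± 1.98 RPKM in Yap1WT (SD, n = 4 each), without overlap. Vgll4 stood at 3.52 ± 0.939 times the level of Yap1 in Yap1KO and at 0.709 ± 0.0343 times in Yap1WT (SD, n = 4 each). The 4 TEAD genes summed to 20.4 ± 2.41 RPKM in Yap1KO and 18.2 ± 3.11 RPKM in Yap1WT (SD, n = 4 each), and overlapped. Set against that sum, Yap1 and Wwtr1 together were at 0.586 ± 0.113 in Yap1KO and 1.15 ± 0.162 in Yap1WT, and Vgll4 at 1.05 ± 0.0924 in Yap1KO and 0.705 ± 0.139 in Yap1WT (SD, n = 4 each). The makeup of the TEAD sum was alike, with Tead3 at 41.4% in Yap1KO and 38.6% in Yap1WT, Tead2 at 23.6% in Yap1KO and 21.9% in Yap1WT, Tead1 at 22.2% in Yap1KO and 24.4% in Yap1WT, and Tead4 at 12.8% in Yap1KO and 15.1% in Yap1WT, and every share overlapped between the groups. These ratios are RNA levels, given as a description without a test, and rest in part on the Yap1 and Vgll4 differences already given.

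The length assigned to a gene decides much of such a comparison. The deposited values imply lengths of about 4120 bases for Yap1, 4720 for Wwtr1 and 1280 for Vgll4, whereas the exons of GENCODE vM21 add up to 9257, 4779 and 5396 bases. With counts divided by the GENCODE lengths, Wwtr1 was the highest of the 7 in Yap1KO, at 5.43 ± 0.418 RPKM, and Vgll4 followed at 5.10 ± 1.07 RPKM, while Yap1 stayed the highest in Yap1WT, at 7.82 ± 0.902 RPKM (SD, n = 4 each). On that scale the Wwtr1 share averaged 66.4% in Yap1KO and 25.8% in Yap1WT, and the ratio of Vgll4 to Yap1 was 1.88 in Yap1KO and 0.371 in Yap1WT. Both measures were higher in Yap1KO on both scales. Other gene lengths change the ratio of 2 genes by nearly the same factor in every library, and the Wwtr1 share rises and falls with such a ratio. The direction could therefore hardly differ and is no added support. The order of genes within a group was not the same.

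Around the complex, 25 partners that bind its members were listed, and 21 passed the filter. Runx2, which encodes a RUNX transcription factor known to bind YAP1, was the only one that edgeR called higher. It had 31.1, 23.5, 16.4 and 24.6 CPM in Yap1KO replicates 1 to 4, against 15.1, 16.0, 11.0 and 9.85 CPM in Yap1WT replicates 1 to 4. The groups did not overlap, but the nearest libraries differed by little (log2 fold change 0.88, SE 0.23, adjusted p = 0.0492 from edgeR), and the call held in 7 of 19 alternatives (adjusted p = 0.00509 to 0.147 over all 19). The count of lower partners was 0 by edgeR, DESeq2 and limma-voom and 1 with edgeR's p left unadjusted, and the median log2 fold change of the 21 was -0.03, against -0.01 over all genes. Vgll1 and Vgll2, further cofactors of the vestigial-like family, had no count in any library, which allows up to 0.0387 to 0.165 CPM depending on the library (3 counts of the total, counting error only). Vgll3 was low, with 1.26, 1.14, 2.07 and 0.983 CPM in Yap1KO and 1.97, 2.77, 1.66 and 4.19 CPM in Yap1WT (adjusted p = 0.240 from edgeR).

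Of 22 kinases and upstream regulators of the Hippo pathway, all of which were tested, edgeR called 1 lower. Wwc1, also named KIBRA, encodes a scaffold that helps to activate the LATS kinases. It had 38.5, 33.8, 39.7 and 31.1 CPM in Yap1KO replicates 1 to 4, against 55.8, 53.5, 73.4 and 64.1 CPM in Yap1WT replicates 1 to 4. The groups did not overlap (log2 fold change -0.78, SE 0.13, adjusted p = 0.0063 from edgeR), and the call held in all 19 alternatives. DESeq2 called 2 lower, Wwc1 and its paralog Wwc2, limma-voom called 1, and 2 were lower with edgeR's p left unadjusted. The count of higher genes was 0 of 22 by edgeR, DESeq2 and limma-voom and 3 with edgeR's p left unadjusted, and the median log2 fold change was 0.02. Lats2, the kinase gene that is itself known as a YAP target, had 17.5, 16.8, 15.6 and 17.7 CPM in Yap1KO and 12.5, 12.0, 9.73 and 14.9 CPM in Yap1WT, without overlap but short of the threshold (log2 fold change 0.47, adjusted p = 0.131 from edgeR); it was named after its values were seen.

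Of 23 known targets of YAP and TEAD, 21 passed the filter, and 3 of the 23 (Amotl2, Ptpn14 and Lats2) also stand among the partners or kinases. Ankrd1, a target that the paper reports as lower in Yap1KO, did not pass. It had 0 counts in every Yap1WT library and 0, 6, 2 and 0 counts in Yap1KO replicates 1 to 4, so these counts cannot show a fall. F3, which encodes the coagulation initiator tissue factor, was the only target that edgeR called, and it was higher. It had 173, 98.6, 142 and 177 CPM in Yap1KO replicates 1 to 4, against 84.7, 79.7, 61.0 and 101 CPM in Yap1WT replicates 1 to 4. Yap1KO replicate 2 lay just below Yap1WT replicate 4, so the groups overlapped by 1 library each (log2 fold change 0.86, SE 0.20, adjusted p = 0.0344 from edgeR), and the call held in 13 of 19 alternatives, being lost without Yap1KO replicate 1, 3 or 4 or without Yap1WT replicate 1, 2 or 3 (adjusted p = 0.0611 to 0.0976). DESeq2 called 2 targets higher (F3 and Gadd45a) and limma-voom 1. With edgeR's p left unadjusted 8 were higher, but the share of all genes at that threshold is not given, so this count has no background. The count of lower targets was 0 by edgeR, DESeq2 and limma-voom, and also 0 with edgeR's p left unadjusted. The median of the 21 was 0.38, with 16 above 0, beside the stromal marker medians of 1.25 and 1.0 given above; the part of stromal RNA in the target levels was not tested. Over the 3 lists together, edgeR called 2 genes higher and 1 lower of 61 tested, or 4.92%, close to the 5.87% of all genes, so these counts do not set the lists apart.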

How the data were processed

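RNA of EpCAM-positive antral tumor cells was sequenced in 4 Yap1KO and 4 Yap1WT mice. For the deposited counts, which are unnormalized integers, the authors used Subread (GRCm38/mm10) and featureCounts over RefSeq genes. The deposited log2 values are the output of voom with quantile normalization, run by the authors in limma. They are log2 RPKM, although their header reads FPKM, and their scaling to gene length is not stated.

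The mouse numbers in the labels matched 8 columns of counts, and 6 further columns were set aside as no sample's. The 1277 entries left without a symbol (0.552 to 0.789% of the counts of a library) were kept out of library sizes and tests. Genes above 0.5 CPM in at least 6 libraries, without pseudogenes unless the log2 values hold them, were compared with edgeR 4.0.16 in R 4.3.3 (quasi-likelihood F test with TMM scaling, p adjusted over 13495 genes by Benjamini and Hochberg, common coefficient of variation 0.283). A standard error is the fold change (log2) divided by the root of F. The test was checked on simulated counts. At adjusted p under 0.05 it recovered 17.4% of 1.5-fold, 56.1% of 2-fold and 90.5% of 4-fold changes, with 2 false calls. A gene that did not pass may therefore still differ by such amounts. Permutation tests were exact and two-sided, over 70 splits.

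Named were all 7 complex genes, the 3 genes nearest in log2 CPM profile to Yap1, Wwtr1 and Vgll4, genes called in the lists of partners, kinases and targets (up to 4 per direction), and the 2 most abundant markers of a cell type. Vgll1, Vgll2, Vgll3, Lats2, Wwc2, Gadd45a, Ankrd1, Epcam, Capn8, Anxa10, Atp4a, Atp4b and Tie1 were named after their values were seen. The members and lists were chosen with earlier results of these data known. Alternatives were other scaling factors and filters, DESeq2 1.42.0, limma-voom and limma-trend (limma 3.58.1), blocks for the replicate number and the mouse-number series, a sex term and leaving out each library. Sequences came from RefSeq (GRCm38.p6) and GENCODE vM21 on GRCm38. Plots were drawn with matplotlib 3.10.9 in Python 3.11.15.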

Additional observations from a re-analysis of the deposited data

How the results depend on the processing

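Yap1 stayed lower in all 19 alternatives (log2 fold change -1.58 to -1.43), so the count of complex genes called lower was 1 throughout. Vgll4 was called in 16 of 19 (0.70 to 0.92 over all 19), the losses being those without a library (0.70 to 0.92 over the 8, highest adjusted p 0.0574). Wwtr1 was called in 5 of 19, at 0.95 by DESeq2, 1.06 by limma-voom, 1.18 with a sex term, 1.05 with the replicate block, and at 0.75 to 1.17 when each library was left out. Accordingly 2 complex genes were called higher under DESeq2, limma-voom, the sex term and the replicate block, and 0 to 2 without a library. Tead1 reversed to -0.02 with a sex term and ran from -0.08 to 0.13 without a library (-0.08, -0.03 and -0.01 without Yap1KO replicate 1, Yap1KO replicate 3 and Yap1WT replicate 2). Tead4 reversed to -0.04 by limma-trend on the deposited values and ran from -0.08 to 0.21 without a library (-0.03, -0.07 and -0.08 without Yap1KO replicate 3, Yap1WT replicate 1 and Yap1WT replicate 3). In the 3 Hippo lists together 3 genes were called in the main fit. The count was 2 with DESeq2 size factors in edgeR, the filter at 4 libraries, limma-voom or limma-trend. It was 4 with total counts alone or the mouse-number series as a block, 5 by DESeq2, 6 with the replicate block and 1 to 6 without a library. With counts divided by GENCODE lengths, the Yap1KO minus Yap1WT difference of the Wwtr1 share was 40.6 percentage points, and that of the Vgll4 to Yap1 ratio 1.51. Without a library these differences were 31.2 to 34.8 points and 2.51 to 3.19. The cause of these shifts was not tested, apart from the gene lengths used. Same-numbered mice deviated together by correlations of 0.04, 0.35, 0.05 and 0.15, and mice of different number by -0.24 to 0.20. The main test did not pair the mice, and these values do not settle whether they form pairs. The replicate block is the alternative that treats the numbers as pairs. Depth limits Tead4, which had 157 counts in Yap1KO replicate 4, more than it limits Yap1, which had 443 counts there.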
